A study of Mus musculus with 8 samples.

Results

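Collagens are the fibres, sheets and filaments of the extracellular matrix, and cardiac fibroblasts are the main cells of the heart that make them. The mouse genes that encode collagen chains were taken as every gene of the deposited table whose symbol has the form Col, a type number, the letter a and a chain number. There were 44 such genes among 24015 gene symbols, of which 11 encode fibrillar collagens, 9 basement membrane collagens, 9 FACIT collagens (fibril-associated collagens with interrupted triple helices) and 15 other collagens. RNA was sequenced from cultured cardiac fibroblasts, taken at 8 weeks of age from C57BL/6J mice of wild type genotype. Libraries were made at day 0, before the cells received osteogenic differentiation medium, and after 7, 14 and 21 days in that medium, which is used to drive cells towards bone formation. Each time had 2 libraries, numbered replicate 1 and replicate 2, and no other genotype or treatment was studied. The labels do not say whether the replicates came from separate mice or cultures, so each p-value measures only the spread between these libraries. No library was kept for 7 to 21 days without the medium, so time in culture and the medium cannot be told apart.

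Every collagen molecule is a triple helix of alpha chains, and each chain is the product of its own gene. Chains of types I, III and V build the banded fibrils of connective tissue, type IV chains build the flat network under endothelium and around muscle cells, FACIT collagens coat the surface of fibrils, and type VI chains form beaded microfilaments beside the cell. Type I collagen is also the main protein of bone, type II that of cartilage, and type X marks hypertrophic cartilage. The chains are hydroxylated, glycosylated and folded in the endoplasmic reticulum, trimmed outside the cell and then cross-linked.

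The deposited values were normalized counts, that is read counts per gene divided by a size factor per library. Each library held 13399313 to 21883498 reads assigned to genes, and 1 read was worth 0.796 to 1.31 normalized counts. The 2 libraries of day 14 and of day 21 differed more from each other than those of day 0 and day 7, with a chi-square over all genes of 20.0 and 19.6 per degree of freedom at days 14 and 21 and 5.11 and 3.60 at days 0 and 7. Differences between times were tested on log2(value + 1) with limma across the 13527 genes that reached 10 normalized counts in at least 2 libraries, 31 collagens among them. A gene is called where its Benjamini-Hochberg adjusted p over all tested genes was below 0.05. The comparisons with day 0 share the day 0 libraries, and each time enters 3 of the 6 comparisons, so they are not independent of each other. Fibroblast markers were present throughout. Vim, Dcn, Pdgfra, Tcf21 and 5 others summed to 215019 to 217695 normalized counts at day 21, against 184581 to 191760.2 at day 0. Vim, the largest of them, had 123685 and 117863 at day 21, against 149253 and 156112 at day 0. Of the 9, all tested, 5 were called higher and 1 lower at day 7 against day 0. Against day 0 these counts were 5 and 3 at day 14 and 6 and 1 at day 21. Over all tested genes the shares called higher and lower were 27.5% and 27.9%, 35.2% and 35.6%, and 29.8% and 29.5%, in the same order. The osteoblast markers Sp7 and Ibsp and the cardiomyocyte marker Myh6 had no read in any library. Other members of these lists rose. At day 21 against day 0, 2 of the 3 osteoblast markers tested and 3 of the 3 cardiomyocyte markers tested were called higher, and 0 lower. Alpl, the highest osteoblast marker, had 630 and 351 normalized counts at day 21, against 125 and 209 at day 0.

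The sequences before the start sites of 5 members are shown first because these members carry the patterns described afterwards. Col1a2 and Col3a1 encode the type I and type III chains whose balance shifted, Col4a1 and Col4a2 lie head to head and moved together, and Col28a1 rose most. RefSeq promoter windows of build GRCm38.p6, running from 250 bases before to 50 bases after the start, were found for 35 of the 44 collagen genes. Each window is written 5′ to 3′ on the strand of its gene, and capitals mark 3 motifs, searched on both strands. The CCAAT box was searched as CCAAT. The letters GGGCGG stood for the GC box. For the TATA box the letters were TATAAA. The windows are chr6:4505368-4505667, plus strand for Col1a2, chr1:45311288-45311587, plus strand for Col3a1, chr8:11312777-11313076, minus strand for Col4a1, chr8:11312555-11312854, plus strand for Col4a2, and chr6:8192568-8192867, minus strand for Col28a1.
Col1a2: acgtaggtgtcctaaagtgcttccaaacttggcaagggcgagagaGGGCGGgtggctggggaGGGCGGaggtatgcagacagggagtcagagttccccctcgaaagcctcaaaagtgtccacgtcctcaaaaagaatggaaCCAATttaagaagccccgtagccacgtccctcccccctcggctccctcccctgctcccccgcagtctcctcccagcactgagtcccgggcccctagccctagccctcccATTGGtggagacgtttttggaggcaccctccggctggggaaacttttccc
Col3a1: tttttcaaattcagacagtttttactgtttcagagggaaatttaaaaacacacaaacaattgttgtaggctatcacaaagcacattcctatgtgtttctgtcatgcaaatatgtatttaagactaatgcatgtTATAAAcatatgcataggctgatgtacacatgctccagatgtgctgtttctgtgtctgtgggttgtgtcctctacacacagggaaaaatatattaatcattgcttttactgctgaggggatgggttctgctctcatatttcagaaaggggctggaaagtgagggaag
Col4a1: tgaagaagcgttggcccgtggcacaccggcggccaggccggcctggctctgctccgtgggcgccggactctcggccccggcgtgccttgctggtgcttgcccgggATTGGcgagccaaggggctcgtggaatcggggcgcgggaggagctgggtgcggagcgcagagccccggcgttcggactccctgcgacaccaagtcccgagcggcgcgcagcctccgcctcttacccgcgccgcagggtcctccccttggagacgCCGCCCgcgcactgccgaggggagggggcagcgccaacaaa
Col4a2: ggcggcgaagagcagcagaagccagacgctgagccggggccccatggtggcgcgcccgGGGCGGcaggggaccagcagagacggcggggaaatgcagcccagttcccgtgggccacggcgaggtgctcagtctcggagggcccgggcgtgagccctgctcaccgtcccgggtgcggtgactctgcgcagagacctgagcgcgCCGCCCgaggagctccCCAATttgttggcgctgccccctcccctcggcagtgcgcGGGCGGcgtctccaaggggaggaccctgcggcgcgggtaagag
Col28a1: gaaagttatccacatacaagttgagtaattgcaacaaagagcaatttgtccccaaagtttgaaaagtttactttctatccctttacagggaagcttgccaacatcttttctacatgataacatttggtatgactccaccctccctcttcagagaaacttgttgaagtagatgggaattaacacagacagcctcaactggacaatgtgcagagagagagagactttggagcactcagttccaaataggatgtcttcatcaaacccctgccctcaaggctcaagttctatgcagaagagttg

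The Col4a1 and Col4a2 windows lie on opposite strands of chromosome 8 and share 78 bases at their 3′ ends. The GC box nearest the 3′ end of each is 1 place in the genome read on either strand. Col1a2 held CCAAT and GGGCGG matches and no TATAAA, Col3a1 held TATAAA alone, and Col28a1 held no match to any of these letters. Over the 38 windows of the 35 genes (some genes have more than 1 start), GGGCGG occurred in 23 (60.5%), against 35.7% of all 32851 mouse windows of this length. CCAAT occurred in 13 of 38 collagen windows (34.2%) and 37.4% of all windows, and TATAAA in 5 of 38 (13.2%) and 13.6%. None of these motifs overlaps another in its letters, and a match here is a string of bases, not a site shown to be bound.

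Collagen transcripts made up 5.01% and 4.76% (day 0), 3.88% and 4.06% (day 7), 1.95% and 1.50% (day 14) and 2.69% and 3.34% (day 21) of all normalized counts. Every library taken in the medium lay below both day 0 libraries, the day 14 libraries were the lowest, and the day 21 libraries lay between those of days 14 and 7. In bulk RNA, fewer cells of a type and less RNA per cell cannot be told apart. Markers of macrophages rose against day 0. All 11 were called higher at days 7, 14 and 21 than at day 0, beside 27.5%, 35.2% and 29.8% of all tested genes. At day 14 against day 7, 4 of the 11 markers were called higher and 0 lower, beside 25.0% and 27.0% of all tested genes. At day 21 against day 14, none of the 11 was called in either direction, beside 20.2% called higher and 14.3% called lower of all tested genes. No macrophage marker was at 0 in every library, though Fcgr1 and Cd163 were each at 0 in 1 day 0 library. The summed level of the 11 markers was 1126 to 1194 normalized counts at day 0, 9666 to 11991 at day 7, 20535 to 38593 at day 14 and 20357 to 20455 at day 21. Lyz2 made up most of each sum, with 647 and 715 at day 0 and 16975 and 31689 at day 14. The part of these markers in the collagen values was not tested. Within day 14, replicate 2 had 1.50% collagen and a macrophage sum of 38593, against 1.95% and 20535 in replicate 1, and 24 of the 31 tested collagens were lower in replicate 2. Within day 21, 28 of 31 were higher in replicate 2 than in replicate 1, with macrophage sums of 20455 and 20357. Within day 0, 25 were higher in replicate 1, and within day 7, 23 were higher in replicate 2. Each of these counts compares single libraries, and the share of all tested genes going the same way was not counted.

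Called collagens pointed both ways at day 7, mostly down at day 14 and mostly up between days 14 and 21. At day 7 against day 0, 14 of the 31 tested collagens were called higher and 8 lower, beside 55.4% called, 27.5% called higher and 27.9% called lower of all tested genes, and the median log2 change was 0.24. At day 14 against day 0, 4 were called higher and 18 lower (all genes, 70.7% called, 35.2% called higher and 35.6% called lower), with a median of -0.57. The 4 were Col11a2, Col27a1, Col23a1 and Col28a1. At day 21 against day 0, 8 were called higher and 11 lower (all genes, 59.4% called, 29.8% called higher and 29.5% called lower), with a median of -0.19, which turned to 0.19, with 11 higher and 10 lower, after a trend in transcript length and GC content was removed from each library. The median over all tested genes was -0.01, 0.0027 and 0.00094 in these comparisons, in the same order.

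Between successive times, 2 collagens were called higher and 20 lower at day 14 against day 7 (all genes, 52.0% called, 25.0% called higher and 27.0% called lower), with a median of -0.72. The 2 were Col27a1 and Col9a3. At day 21 against day 14, 19 were called higher and 4 lower (all genes, 34.5% called, 20.2% called higher and 14.3% called lower), with a median of 0.57. The 4 were Col4a4, Col7a1, Col9a3 and Col11a2, none of which had a mean above 35.2 normalized counts at either time. At day 21 against day 7, no collagen was called higher by limma, edgeR or DESeq2, or at an unadjusted p below 0.05, and 10 were called lower by limma (all genes, 8.74% called, 5.46% called higher and 3.28% called lower), with a median of -0.36. In none of the calls did the libraries of the times compared overlap. With 2 libraries per time a call makes overlap unlikely, so this adds no support, and the share over all called genes was not counted. The 10 calls of day 21 against day 7 numbered 1 without either day 7 library, 4 without either day 0 library and 3 without day 21 replicate 1, while the log2 changes of these 10 genes stayed between -1.10 and -0.29 when any 1 library was left out. The 2 calls of day 14 above day 7 numbered 0 without either day 7 library or day 14 replicate 2, and the 4 calls of day 21 below day 14 numbered 1 without day 14 replicate 2 or day 21 replicate 1 and 0 by DESeq2.

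**Figure D1:**
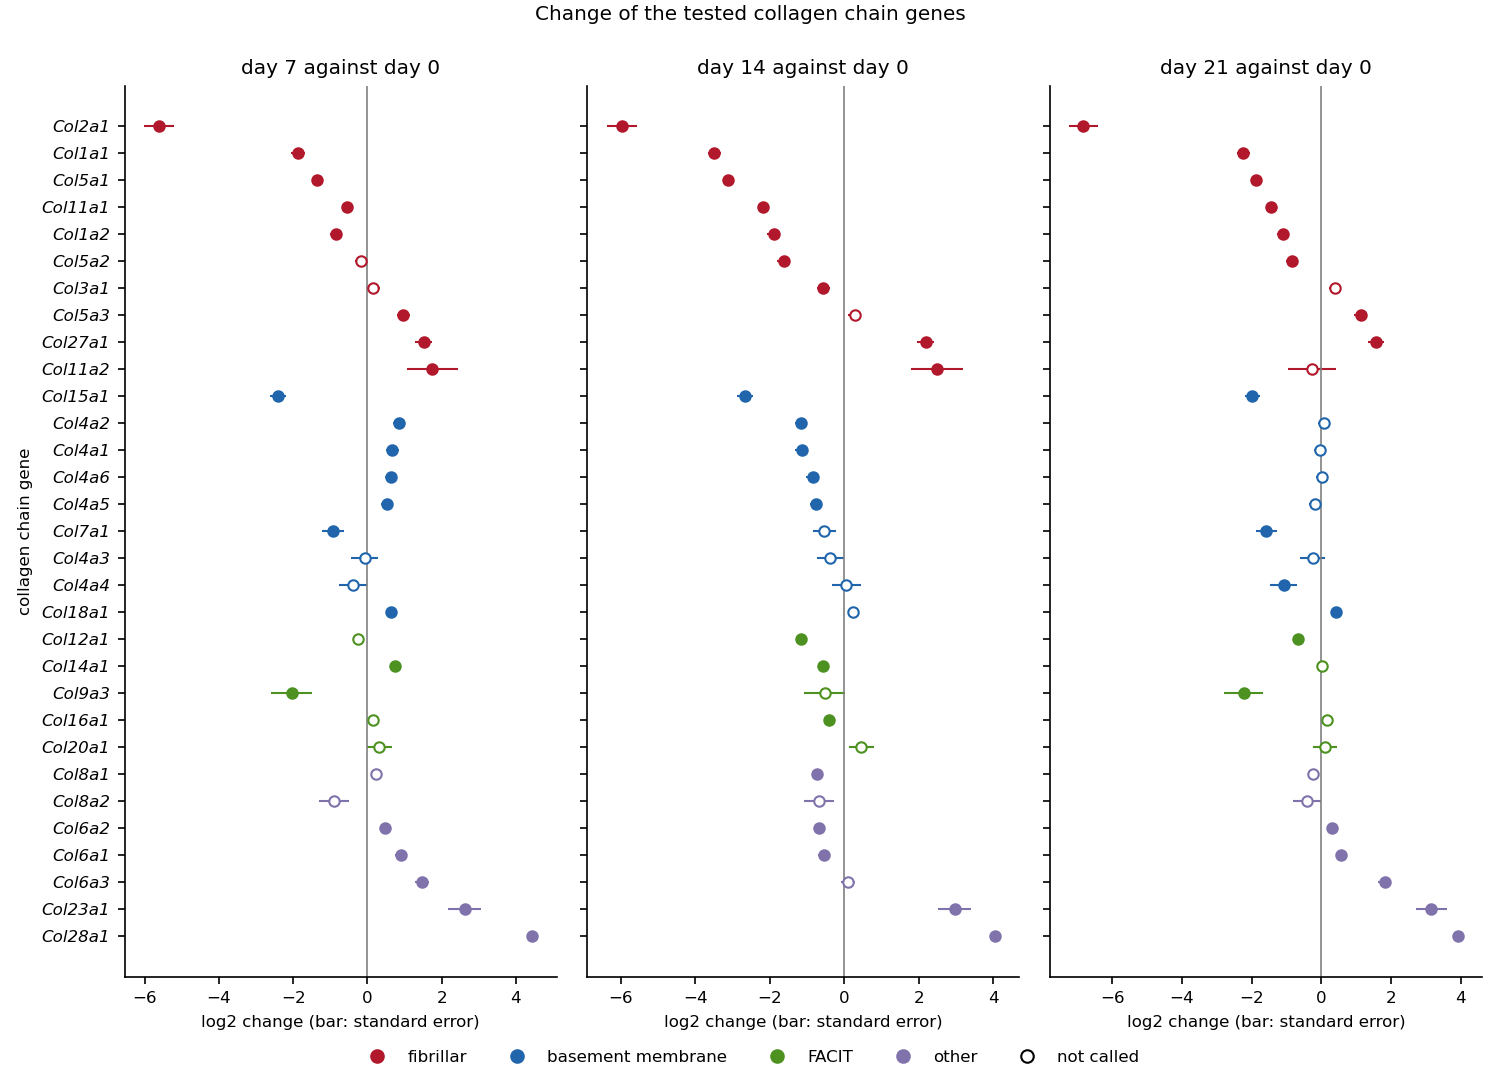
Log2 change (x axis) of the 31 tested collagen genes at days 7, 14 and 21 against day 0, coloured by class, with bars for the standard error and open circles for changes that were not called. Col2a1 lies farthest below 0 and Col28a1 farthest above it in all 3 panels, and most filled circles at day 14 lie below 0.

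Among the fibrillar collagens, both type I chains, Col5a1 and Col5a2 fell, Col3a1 was called lower by limma at day 14 and at neither other time against day 0, and Col2a1 fell most. Of the 10 tested, 3 were called higher and 5 lower at day 7, 2 higher and 7 lower at day 14, and 2 higher and 6 lower at day 21, each against day 0. Over all tested genes the shares called higher and lower were 27.5% and 27.9%, 35.2% and 35.6%, and 29.8% and 29.5%, in the same order. Col24a1, the only fibrillar member not tested, had at most 2.73 normalized counts in a library. Each pair of values gives replicate 1 and then replicate 2.

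Col1a1 encodes the alpha1 chain of type I collagen. Col1a1 had 242711 and 257184 normalized counts (day 0), 64015 and 73189.8 (day 7), 24910.2 and 19925 (day 14) and 44351 and 63744 (day 21). It fell at day 7 (log2 change -1.87 ± 0.18 (SE), 3.65-fold lower, adjusted p = 2.57e-06), at day 14 (log2 change -3.49 ± 0.18 (SE), 11.2-fold lower, adjusted p = 5.72e-09) and at day 21 (log2 change -2.23 ± 0.18 (SE), 4.70-fold lower, adjusted p = 3.89e-07), each against day 0. The day 0 libraries were far above all others, the day 14 libraries the lowest, and the day 21 libraries lay just below those of day 7 without being called (log2 change -0.36 ± 0.18 (SE), 1.29-fold lower, adjusted p = 0.227). Col1a2, the partner chain of type I collagen, had 161631 and 153634 normalized counts (day 0), 85364 and 89045 (day 7), 48083 and 37497 (day 14) and 64490.2 and 85084 (day 21). Col1a2 followed the same order of times with smaller steps: log2 change -0.85 ± 0.17 (SE), 1.81-fold lower, adjusted p = 8.98e-04 at day 7, log2 change -1.89 ± 0.17 (SE), 3.71-fold lower, adjusted p = 6.95e-07 at day 14, and log2 change -1.09 ± 0.17 (SE), 2.13-fold lower, adjusted p = 1.19e-04 at day 21. The rise of both chains from the day 14 level was called at day 21 against day 14, with log2 changes of 1.25 (adjusted p = 6.09e-04) for Col1a1 and 0.80 (adjusted p = 0.00422) for Col1a2.

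Col3a1 encodes type III collagen, which co-assembles with type I in elastic tissues. It had 141119 and 121183 normalized counts (day 0), 141629 and 150616 (day 7), 101603 and 77882 (day 14) and 158763 and 186747 (day 21). Only the day 14 libraries lay below both day 0 libraries, and the libraries of days 7 and 21 lay above them. Col3a1 fell at day 14 against day 0 (log2 change -0.56 ± 0.17 (SE), 1.47-fold lower, adjusted p = 0.0117) and rose at day 21 against day 14 (log2 change 0.95 ± 0.17 (SE), 1.94-fold higher, adjusted p = 0.00216). The day 21 change against day 0 missed the threshold by limma (log2 change 0.40 ± 0.17 (SE), 1.32-fold higher, adjusted p = 0.0643) but was called higher by edgeR (adjusted p = 0.0267) and DESeq2 (adjusted p = 0.00792). The day 7 change was not called by any of the 3 tools (log2 change 0.16 ± 0.17 (SE), 1.12-fold higher, adjusted p = 0.455). The day 14 call against day 0 was lost without day 0 replicate 1 or without day 14 replicate 2 (log2 changes of -0.45 and -0.36).

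Type V collagen starts fibril assembly inside type I fibrils. Col5a1 had 37897 and 36541 normalized counts (day 0), 13556 and 15485 (day 7), 4723 and 3902 (day 14) and 8903 and 11784 (day 21), and fell at day 14 to the lowest values of the series (log2 change -3.12 ± 0.14 (SE), 8.67-fold lower, adjusted p = 1.88e-09). All 6 libraries in the medium lay below both at day 0, with log2 change -1.36 ± 0.14 (SE), 2.57-fold lower, adjusted p = 5.13e-06 at day 7 and log2 change -1.86 ± 0.14 (SE), 3.63-fold lower, adjusted p = 2.34e-07 at day 21. Its partner Col5a2 had 83569.7 and 69258 normalized counts (day 0), 67031 and 68172 (day 7), 29012 and 20898 (day 14) and 38644 and 46693 (day 21). Its day 7 libraries lay below both at day 0 without being called (log2 change -0.17 ± 0.17 (SE), 1.13-fold lower, adjusted p = 0.410), whereas day 14 (log2 change -1.63 ± 0.17 (SE), 3.09-fold lower, adjusted p = 2.74e-06) and day 21 (log2 change -0.84 ± 0.17 (SE), 1.79-fold lower, adjusted p = 9.00e-04) were lower. Col5a3, a chain that replaces others in some type V molecules, went the other way with 246 and 242 normalized counts (day 0), 446 and 515 (day 7), 296 and 297 (day 14) and 418 and 683 (day 21). It rose at day 7 (log2 change 0.97 ± 0.18 (SE), 1.96-fold higher, adjusted p = 6.93e-04) and day 21 (log2 change 1.13 ± 0.18 (SE), 2.18-fold higher, adjusted p = 1.94e-04), and its day 14 libraries, though above those of day 0, were not called (log2 change 0.28 ± 0.18 (SE), 1.21-fold higher, adjusted p = 0.188).

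Col11a1, whose chain is best known from cartilage fibrils and can join type V chains, had 11859.9 and 9836 normalized counts (day 0), 7406 and 7434 (day 7), 2630.3 and 2142 (day 14) and 3469 and 4479 (day 21). It fell at each time against day 0 (log2 change -0.54 ± 0.14 (SE), 1.46-fold lower, adjusted p = 0.00550 at day 7, log2 change -2.19 ± 0.14 (SE), 4.55-fold lower, adjusted p = 4.00e-08 at day 14, log2 change -1.45 ± 0.14 (SE), 2.74-fold lower, adjusted p = 2.01e-06 at day 21), and day 21 was also below day 7 (log2 change -0.91 ± 0.14 (SE), 1.88-fold lower, adjusted p = 0.00196). Without day 0 replicate 1 the day 7 call was lost, at a log2 change of -0.41. Col2a1 encodes the type II collagen of cartilage. It had 1916 and 1922 normalized counts (day 0), 38.3 and 38.3 (day 7), 22.8 and 38.6 (day 14) and 8.54 and 29.2 (day 21), so that both day 0 libraries were far above every other. It fell at day 7 (log2 change -5.61 ± 0.41 (SE), 48.9-fold lower, adjusted p = 2.17e-07), at day 14 (log2 change -5.97 ± 0.41 (SE), 62.6-fold lower, adjusted p = 6.93e-08) and day 21 (log2 change -6.82 ± 0.41 (SE), 113-fold lower, adjusted p = 2.65e-08). Of the 5 chondrocyte markers tested, 2 were called higher and 3 lower at each of days 7, 14 and 21 against day 0. Among all tested genes, 27.5%, 35.2% and 29.8% were called higher and 27.9%, 35.6% and 29.5% lower at these times. Comp, a cartilage matrix protein, had 783 to 3495 normalized counts in the medium against 367 and 471 at day 0, and Lect1, which encodes chondromodulin, had 60.6 to 202 against 1.59 and 1.31. Sox9, the cartilage transcription factor, had 1819 to 3774 in the medium against 4900 and 4750 at day 0. Acan, the large cartilage proteoglycan, had at most 11.7 normalized counts in any library in the medium, against 51.8 and 51.0 at day 0. Matn3, a matrilin of cartilage, had no read in the medium, against 27.9 and 31.4 normalized counts at day 0. The 8 chondrocyte markers in the table summed to 5307 to 5353 at day 0, 4641 to 4748 at day 7, 4074 to 4506 at day 14 and 4521 to 6361 at day 21, 1 of them (3110079O15Rik) at 0 in all libraries, and their part in the Col2a1 change was not tested.

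Col27a1, a fibrillar collagen of cartilage and other tissues, was a low member that rose. It had 34.2 and 20.9 normalized counts (day 0), 75.6 and 81.1 (day 7), 119 and 133 (day 14) and 80.1 and 83.6 (day 21), and every library in the medium exceeded both at day 0. The changes against day 0 were log2 change 1.51 ± 0.23 (SE), 2.85-fold higher, adjusted p = 1.26e-04 at day 7, log2 change 2.19 ± 0.23 (SE), 4.57-fold higher, adjusted p = 3.10e-06 at day 14 and log2 change 1.58 ± 0.23 (SE), 2.98-fold higher, adjusted p = 7.72e-05 at day 21. Col11a2, the partner of Col11a1 in cartilage, stayed at or below 15.5 normalized counts in every library, where a call rests on few reads.

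The basement membrane collagens Col4a1 and Col4a2, which together form the common type IV network, rose at day 7, fell at day 14 and were not called at day 21, each against day 0. The minor chains Col4a5 and Col4a6 had the same sequence of calls, whereas Col15a1 fell at every time. Of the 9 members, all tested, 5 were called higher and 2 lower at day 7, 0 higher and 5 lower at day 14, and 1 higher and 3 lower at day 21, each against day 0 by limma. The shares of all tested genes called higher and lower were 27.5% and 27.9%, 35.2% and 35.6%, and 29.8% and 29.5%, in the same order. The count of 0 at day 14 was also 0 at an unadjusted p below 0.05 and by edgeR and DESeq2.

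Col4a1 had 68984 and 64332 normalized counts (day 0), 100981 and 111254 (day 7), 34895 and 26033 (day 14) and 56541 and 75198 (day 21). Both day 7 libraries lay above, and both day 14 libraries below, all the others. Col4a1 rose at day 7 (log2 change 0.67 ± 0.17 (SE), 1.59-fold higher, adjusted p = 0.00541), fell at day 14 (log2 change -1.14 ± 0.17 (SE), 2.21-fold lower, adjusted p = 7.07e-05) and was not called at day 21 (log2 change -0.031 ± 0.17 (SE), 1.02-fold lower, adjusted p = 0.886), each against day 0. Col4a2 had 51661 and 53563 normalized counts (day 0), 89824 and 100084 (day 7), 27060.4 and 20652 (day 14) and 47874 and 64821 (day 21). Its changes against day 0 were log2 change 0.85 ± 0.17 (SE), 1.80-fold higher, adjusted p = 9.71e-04 at day 7, log2 change -1.15 ± 0.17 (SE), 2.23-fold lower, adjusted p = 5.50e-05 at day 14 and log2 change 0.083 ± 0.17 (SE), 1.06-fold higher, adjusted p = 0.692 at day 21, the last not called as deposited and called higher after the trend in length and GC content was removed (0.48). Between days 7 and 14 the fall was larger than either change against day 0, with log2 change -1.81 ± 0.17 (SE), 3.52-fold lower, adjusted p = 2.44e-05 for Col4a1 and log2 change -2.00 ± 0.17 (SE), 4.01-fold lower, adjusted p = 1.39e-05 for Col4a2. Both rose at day 21 against day 14, by log2 changes of 1.11 (adjusted p = 9.63e-04) and 1.24 (adjusted p = 4.84e-04). Without day 7 replicate 2 the day 7 call of Col4a1 against day 0 was lost (log2 change 0.60).

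Col4a5 and Col4a6 are X-linked and, like the Col4a1 and Col4a2 pair, neighbours without another protein-coding gene between them. Col4a5 had 5553 and 4905 normalized counts (day 0), 7606 and 7417 (day 7), 3838 and 2485 (day 14) and 4109 and 5108 (day 21). It rose at day 7 (log2 change 0.53 ± 0.17 (SE), 1.44-fold higher, adjusted p = 0.0192) and fell at day 14 (log2 change -0.76 ± 0.17 (SE), 1.69-fold lower, adjusted p = 0.00153), and its day 21 libraries lay on either side of the lower day 0 library (log2 change -0.19 ± 0.17 (SE), 1.14-fold lower, adjusted p = 0.358). The day 7 call was lost without day 0 replicate 2 or without either day 7 library (log2 changes from 0.44 to 0.54). Col4a6 had 1269 and 1165 normalized counts (day 0), 1862 and 1926 (day 7), 823 and 554 (day 14) and 1057 and 1414 (day 21). Its changes against day 0 were log2 change 0.64 ± 0.17 (SE), 1.56-fold higher, adjusted p = 0.00677 at day 7, log2 change -0.85 ± 0.17 (SE), 1.80-fold lower, adjusted p = 6.89e-04 at day 14 and log2 change 0.0083 ± 0.17 (SE), 1.01-fold higher, adjusted p = 0.970 at day 21, the last not called, and without day 0 replicate 2 the day 7 call was lost at 0.58. Col4a3 and Col4a4, the other chains of the type IV family and also neighbours, stayed between 9.61 and 40.1 normalized counts in all libraries.

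Col15a1, a basement membrane collagen of heart and muscle that releases an endostatin-like fragment, had 198 and 210.5 normalized counts (day 0), 43.7 and 32.1 (day 7), 31.0 and 31.6 (day 14) and 44.9 and 58.4 (day 21). Both day 0 libraries were above every other library, and the fall was log2 change -2.42 ± 0.22 (SE), 5.34-fold lower, adjusted p = 1.74e-06 at day 7, log2 change -2.67 ± 0.22 (SE), 6.36-fold lower, adjusted p = 3.93e-07 at day 14 and log2 change -1.98 ± 0.22 (SE), 3.93-fold lower, adjusted p = 8.00e-06 at day 21. Its relative Col18a1, the source of endostatin, ranged from 409 to 682 normalized counts, called higher at days 7 and 21 against day 0 (log2 changes of 0.64 (adjusted p = 3.61e-04) and 0.43 (adjusted p = 0.00507), the second lost without day 0 replicate 2 at 0.35). Col7a1, the anchoring fibril collagen, stayed at or below 41.8 normalized counts. Of the 8 endothelial markers tested, 2 were called lower at day 7, 5 at day 14 and 6 at day 21, each against day 0. The shares of all tested genes called lower were 27.9%, 35.6% and 29.5%. At day 21 against day 14, 0 were called higher and 3 lower, beside 20.2% and 14.3% of all tested genes. The endothelial markers summed to 721 to 765 normalized counts at day 0 and 621 to 639 at day 7. The sums were 349 to 426 at day 14 and 321 to 469 at day 21, and Kdr was at 0 in day 14 replicate 2. The part of these markers in the type IV and type XV values was not tested.

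**Figure D2:**
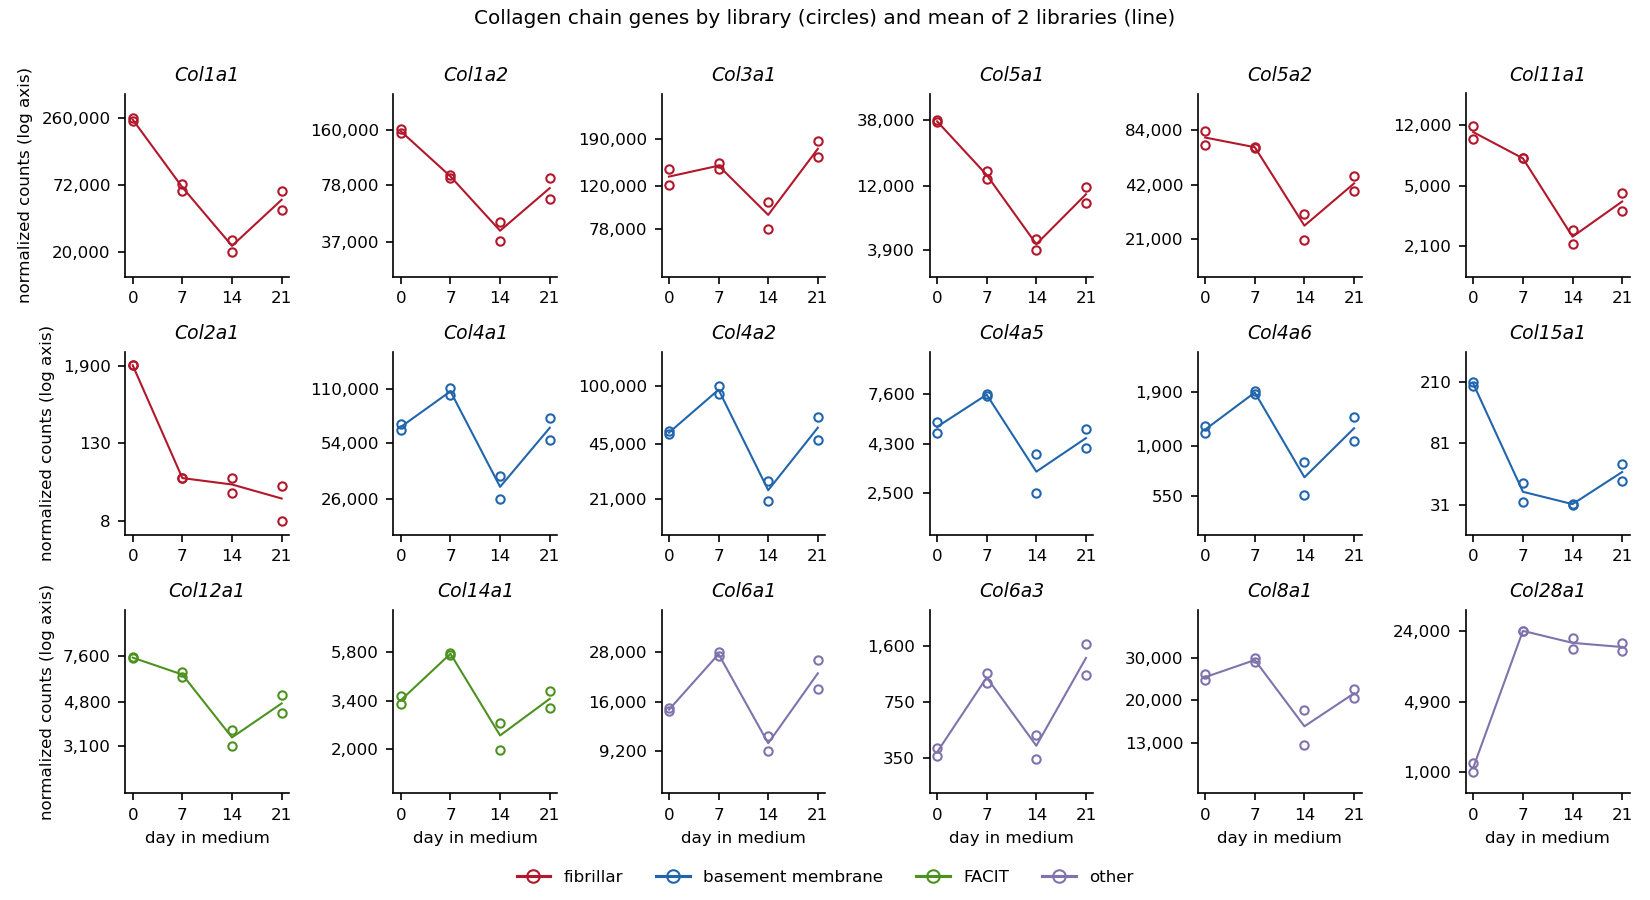
Normalized counts (log axes that differ between panels) of 18 collagen genes against days in the medium, coloured by class, with a circle for each library and a line through the mean of the 2 libraries. The day 14 circles are the lowest in most panels, and Col28a1 is the 1 panel whose circles at days 7, 14 and 21 all lie far above those of day 0.

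The 3 abundant FACIT collagens, Col12a1, Col14a1 and Col16a1, were lowest at day 14. Of the 5 tested, 1 was called higher and 1 lower at day 7, 0 higher and 3 lower at day 14, and 0 higher and 2 lower at day 21, each against day 0 by limma. For all tested genes the shares called higher and lower were 27.5% and 27.9%, 35.2% and 35.6%, and 29.8% and 29.5%, in the same order. Both counts of 0 were also 0 at an unadjusted p below 0.05 and by edgeR and DESeq2. Col12a1, which coats type I fibrils, had 7558 and 7464 normalized counts (day 0), 6199.7 and 6488 (day 7), 3664 and 3109 (day 14) and 5181 and 4331 (day 21). Its 8 libraries kept the order day 0, day 7, day 21 and day 14 with no overlap, and it fell at day 14 (log2 change -1.15 ± 0.11 (SE), 2.22-fold lower, adjusted p = 1.55e-06) and day 21 (log2 change -0.66 ± 0.11 (SE), 1.59-fold lower, adjusted p = 2.47e-04) against day 0. Col14a1, a related coat protein of fibrils, had 3579 and 3271 normalized counts (day 0), 5645 and 5781 (day 7), 2676 and 1972 (day 14) and 3151 and 3806 (day 21). It rose at day 7 (log2 change 0.74 ± 0.14 (SE), 1.67-fold higher, adjusted p = 6.03e-04) above every other library, fell at day 14 (log2 change -0.57 ± 0.14 (SE), 1.49-fold lower, adjusted p = 0.00235), and overlapped the day 0 libraries at day 21 (log2 change 0.017 ± 0.14 (SE), 1.01-fold higher, adjusted p = 0.920). Col16a1, a FACIT collagen found beside fibrils and microfibrils, had 2870.2 and 2315 normalized counts (day 0), 2807 and 2941 (day 7), 2086 and 1799 (day 14) and 2511 and 3310.0 (day 21), with both day 14 libraries the lowest. Its change at day 14 against day 0 (log2 change -0.41 ± 0.14 (SE), 1.33-fold lower, adjusted p = 0.0187) was lost without day 0 replicate 1 or without day 14 replicate 2 (log2 changes of -0.26 and -0.31). Col20a1 and Col9a3 stayed at or below 25.9 normalized counts, and Col9a1, Col9a2, Col19a1 and Col22a1 were not tested, with at most 11.8 in any library.

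Among the remaining collagens, Col28a1 had the largest rise of any tested collagen, and the type VI chains rose at days 7 and 21 against day 0. Of the 7 tested, 5 were called higher and 0 lower at day 7, 2 higher and 3 lower at day 14, and 5 higher and 0 lower at day 21, each against day 0 by limma. Across all tested genes the shares called higher and lower were 27.5% and 27.9%, 35.2% and 35.6%, and 29.8% and 29.5%, in the same order. The counts of 0 were 1 at day 7 and 0 at day 21 at an unadjusted p below 0.05, and 0 at both times by edgeR and DESeq2. Col28a1 encodes type XXVIII collagen, a chain with von Willebrand factor A domains best known from peripheral nerve. It had 1219 and 1001 normalized counts (day 0), 24045 and 24010.3 (day 7), 20539.7 and 16151 (day 14) and 15320.4 and 18099 (day 21), so that each library in the medium was more than 10 times either day 0 library. The rise was log2 change 4.44 ± 0.14 (SE), 21.7-fold higher, adjusted p = 2.39e-10 at day 7, log2 change 4.04 ± 0.14 (SE), 16.5-fold higher, adjusted p = 1.97e-10 at day 14 and log2 change 3.91 ± 0.14 (SE), 15.1-fold higher, adjusted p = 2.83e-10 at day 21. Per kilobase of its 4.23 kb transcript, Col28a1 had 262 ± 36.4 at day 0, 5680.2 ± 5.72 at day 7, 4337 ± 734 at day 14 and 3950.3 ± 465 at day 21, which made it the fourth among collagens at day 14. The Schwann cell markers summed to 213 to 218 normalized counts at day 0, 311 to 329 at day 7, 328 to 332 at day 14 and 319 to 369.6 at day 21. At day 7 against day 0, 2 of the 4 tested were called higher, beside 27.5% of all tested genes, and Sox10 was at 0 in some libraries. The part of these markers in the Col28a1 change was not tested.

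Col6a1, Col6a2 and Col6a3 encode the chains of the common type VI heterotrimer. Col6a1 had 14912 and 14410.4 normalized counts (day 0), 26648 and 27977 (day 7), 10919 and 9229.6 (day 14) and 18485 and 25577 (day 21). It rose at day 7 (log2 change 0.90 ± 0.14 (SE), 1.86-fold higher, adjusted p = 2.07e-04) and day 21 (log2 change 0.57 ± 0.14 (SE), 1.48-fold higher, adjusted p = 0.00456) and fell at day 14 (log2 change -0.55 ± 0.14 (SE), 1.46-fold lower, adjusted p = 0.00456), each against day 0. Col6a2, its neighbour on chromosome 10, had 6897 and 6574 normalized counts (day 0), 9055 and 9714 (day 7), 4481 and 4019 (day 14) and 7339.8 and 9363 (day 21). Its changes were log2 change 0.48 ± 0.12 (SE), 1.39-fold higher, adjusted p = 0.00450 at day 7, log2 change -0.67 ± 0.12 (SE), 1.59-fold lower, adjusted p = 2.85e-04 at day 14 and log2 change 0.30 ± 0.12 (SE), 1.23-fold higher, adjusted p = 0.0453 at day 21. The day 21 call of Col6a2 was lost without either day 0 library, either day 7 library or day 21 replicate 2 (log2 changes from 0.12 to 0.33), and with scaling to total reads (0.19), and its day 7 call without day 7 replicate 2 (0.43). Col6a3 had 357 and 397 normalized counts (day 0), 974 and 1115 (day 7), 478 and 346 (day 14) and 1087 and 1638 (day 21). It rose at day 7 (log2 change 1.46 ± 0.19 (SE), 2.76-fold higher, adjusted p = 2.97e-05) and day 21 (log2 change 1.82 ± 0.19 (SE), 3.53-fold higher, adjusted p = 3.59e-06), while its day 14 libraries lay on either side of those of day 0 (log2 change 0.11 ± 0.19 (SE), 1.08-fold higher, adjusted p = 0.611). At day 21 against day 14 all 3 chains rose, with log2 changes of 1.11 (adjusted p = 3.67e-04) for Col6a1, 0.97 (adjusted p = 2.69e-04) for Col6a2 and 1.71 (adjusted p = 1.42e-04) for Col6a3.

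Col8a1 encodes a network-forming collagen of blood vessels and cornea. It had 25592 and 24238 normalized counts (day 0), 30115 and 28832 (day 7), 17976 and 12777 (day 14) and 20239 and 22271 (day 21), highest at day 7 and lowest at day 14. It fell at day 14 against day 0 (log2 change -0.72 ± 0.14 (SE), 1.64-fold lower, adjusted p = 7.26e-04), and neither day 7 (log2 change 0.24 ± 0.14 (SE), 1.18-fold higher, adjusted p = 0.173) nor day 21 (log2 change -0.23 ± 0.14 (SE), 1.17-fold lower, adjusted p = 0.189) was called. Col8a2, its partner, stayed at or below 20.7 normalized counts. Col23a1, a transmembrane collagen, was called higher at days 7, 14 and 21 against day 0, with at most 31.0 normalized counts in a library in the medium, against at most 3.18 at day 0. Col10a1, the hypertrophic cartilage collagen, was not tested: it had 21 reads over the 8 libraries, of which 1 was at day 0, 4 at day 7, 4 at day 14 and 12 at day 21. In normalized counts, Col10a1 had 0.796 and 0 normalized counts (day 0), 0.911 and 2.67 (day 7), 1.82 and 2.34 (day 14) and 2.14 and 9.73 (day 21). The 7 other members of this class that were not tested were Col6a4, Col6a5, Col6a6, Col13a1, Col17a1, Col25a1 and Col26a1, and the highest library among them was one of Col6a6 at 16.5 normalized counts. At day 21, Col6a6 had 23 of its 33 reads.

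The makeup of the collagen transcript pool moved away from fibrillar chains. Fibrillar collagens held 78.0 ± 0.125% at day 0, 55.3 ± 0.0837% at day 7, 61.9 ± 0.0695% at day 14 and 63.2 ± 0.423% at day 21 of collagen normalized counts (mean ± SD, n = 2). Basement membrane collagens held 14.8 ± 0.173% at day 0, 29.8 ± 0.646% at day 7, 19.4 ± 0.372% at day 14 and 22.6 ± 0.890% at day 21, and FACIT collagens held 1.59 ± 0.0293% at day 0, 2.11 ± 0.0414% at day 7, 2.56 ± 0.111% at day 14 and 1.99 ± 0.251% at day 21. The other collagens held 5.61 ± 0.0189% at day 0, 12.9 ± 0.520% at day 7, 16.1 ± 0.191% at day 14 and 12.3 ± 0.217% at day 21. No library taken in the medium reached the fibrillar share of either day 0 library. The shares do not sum independently, since a fall of Col1a1 alone raises the share of every other class.

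**Figure D3:**
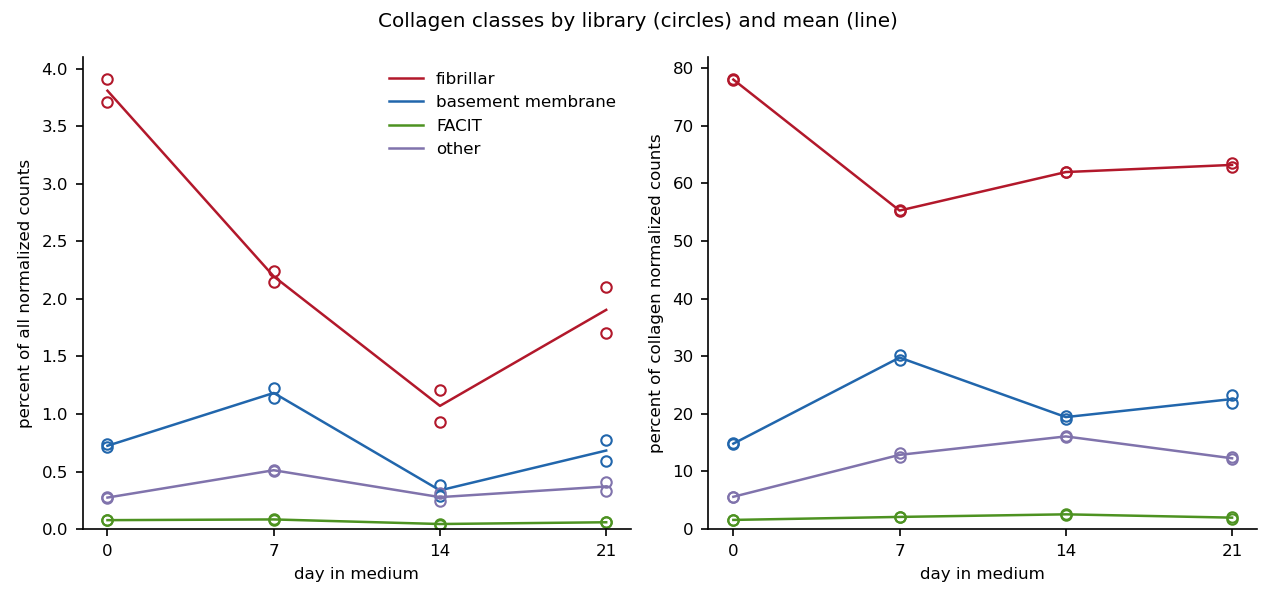
Share of all normalized counts (left, percent) and of collagen normalized counts (right, percent) held by each collagen class against days in the medium, with a circle for each library and a line through the mean. The fibrillar class holds 55.3% of collagen counts at day 7, against 78.0% at day 0.

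Levels of different genes were compared per kilobase of the longest annotated transcript. Col1a1 was the highest collagen at day 0 and Col3a1 at days 7, 14 and 21. Col1a1 had 42149.6 ± 1726 at day 0, 11569 ± 1094 at day 7, 3780.4 ± 594 at day 14 and 9114 ± 2313 at day 21 normalized counts per kilobase. Col3a1 had 23571 ± 2534 at day 0, 26262 ± 1142 at day 7, 16129 ± 3015 at day 14 and 31049 ± 3556 at day 21 normalized counts per kilobase. The day 0 order continued with Col1a2, Col3a1, Col5a2 and Col4a1, and the day 21 order after Col3a1 was Col1a2, Col4a1, Col1a1 and Col4a2. At day 21 Col4a1 (9958 ± 1994), Col1a1 and Col4a2 (8736 ± 1858) lay close together. Their SDs measure the spread between libraries, in which most collagens shifted together, and not the spread of the difference between genes. Within the day 21 libraries Col4a1 over Col4a2 was 1.15 and 1.13.

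Ratios between chains of 1 molecule, or of molecules that share a fibril, were taken per kilobase in each library, without a test. Col1a1 over Col1a2 was 1.35 and 1.51 (day 0), 0.676 and 0.741 (day 7), 0.467 and 0.479 (day 14) and 0.620 and 0.676 (day 21). All 6 libraries in the medium lay below both at day 0. The size of this ratio depends on the transcript chosen, since with the median transcript length in place of the longest it was 7.55 rather than 1.43 at day 0, while its fold over time does not. Col3a1 over Col1a1 was 0.620 and 0.502 (day 0), 2.36 and 2.19 (day 7), 4.35 and 4.17 (day 14) and 3.82 and 3.12 (day 21), above day 0 in every later library. Col5a1 over Col5a2 was 0.357 and 0.416 (day 0), 0.159 and 0.179 (day 7), 0.128 and 0.147 (day 14) and 0.182 and 0.199 (day 21), below day 0 in every later library. Col11a1 over Col5a1 was 0.343 and 0.295 (day 0), 0.599 and 0.526 (day 7), 0.611 and 0.602 (day 14) and 0.427 and 0.417 (day 21), highest at days 7 and 14.

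The paired type IV and type VI chains had ratios that stayed within narrower ranges. Col4a1 over Col4a2 was 1.30 and 1.17 (day 0), 1.10 and 1.08 (day 7), 1.26 and 1.23 (day 14) and 1.15 and 1.13 (day 21), a range in which days 0 and 14 overlapped. Col6a1 over Col6a2 was 2.59 and 2.63 (day 0), 3.53 and 3.45 (day 7), 2.92 and 2.75 (day 14) and 3.02 and 3.27 (day 21), higher in every later library than in either at day 0. Col4a5 over Col4a1 was 0.0815 and 0.0772 (day 0), 0.0762 and 0.0675 (day 7), 0.111 and 0.0966 (day 14) and 0.0735 and 0.0688 (day 21). The Col8a1 over Col8a2 ratio rests on a Col8a2 denominator of few reads, and Col9a1 had no read at day 0, so no ratio is given for these pairs.

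**Figure D4:**
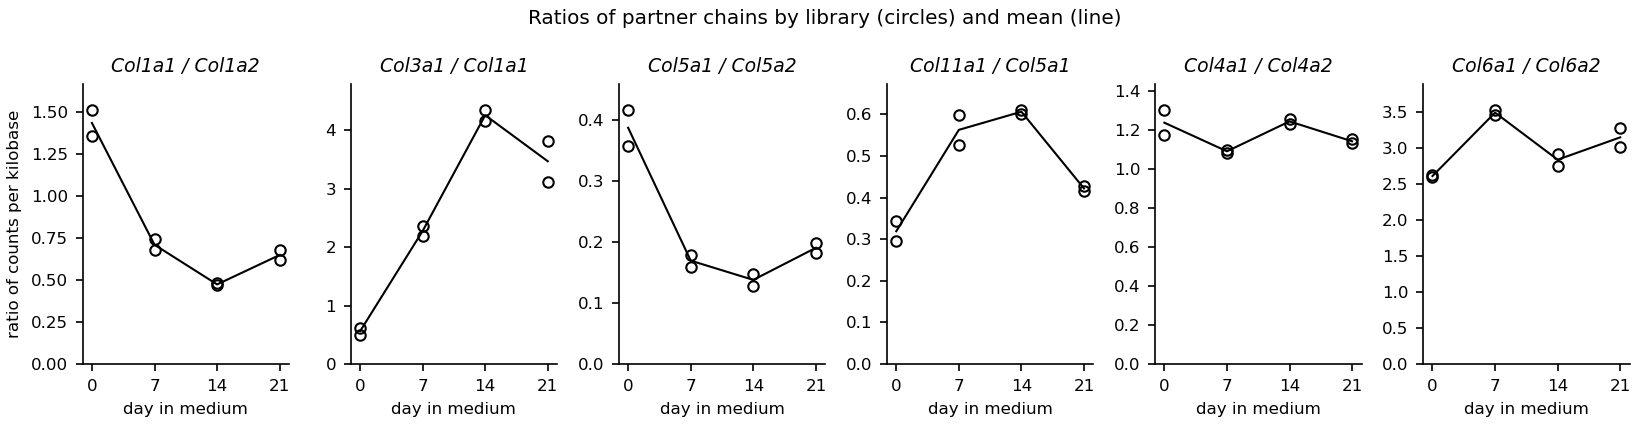
Ratios of partner collagen chains in normalized counts per kilobase (linear axes from 0) against days in the medium, with a circle for each library and a line through the mean. Col1a1 over Col1a2 and Col5a1 over Col5a2 drop after day 0, Col3a1 over Col1a1 rises, and Col4a1 over Col4a2 stays between 1.08 and 1.30.

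Transcript length moved with the day 14 changes. Over the tested genes with a known length, with GC content in the model, each doubling of transcript length went with a log2 change of -0.42 at day 14 against day 0, -0.40 at day 14 against day 7, and 0.26 at day 21 against day 14. For the comparisons of day 7 and day 21 with day 0 the slopes were -0.023 and -0.17. Collagen transcripts are long, with a median of 5.99 kb over the 44 genes against 3360 bases over all tested genes. After a smooth trend in length and GC content was removed from each library, 9 collagens were called higher and 12 lower at day 14 against day 0, in place of 4 and 18, and the median log2 change was -0.20 in place of -0.57. Whether the length trend is a property of the cells or of the RNA or libraries was not tested.

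Several day 14 calls against day 0 depended on this correction. Col3a1 (corrected log2 change -0.067, adjusted p = 0.710), Col14a1 (-0.034, adjusted p = 0.761), Col4a5 (-0.18, adjusted p = 0.230), Col4a6 (-0.21, adjusted p = 0.156) and Col6a1 (-0.21, adjusted p = 0.124) were no longer called lower. Col16a1 turned to 0.31 (adjusted p = 0.0126), called higher. Col18a1 (0.98), Col5a3 (1.13), Col6a3 (0.96) and Col20a1 (0.96) became called higher. The type I and type V falls held, at -2.77 for Col1a1, -1.35 for Col1a2, -2.23 for Col5a1 and -1.07 for Col5a2, as did those of Col11a1 (-1.57), Col2a1 (-5.22) and Col15a1 (-2.14). Col4a1 and Col4a2 were still called lower, at -0.39 and -0.31, with smaller changes than as deposited. The rise of Col28a1 was 4.25. By class, 1 basement membrane collagen was then called higher and 3 lower, and 2 FACIT collagens higher and 1 lower. At day 21 against day 0, Col3a1 (0.59, adjusted p = 0.00549), Col4a2 (0.48, adjusted p = 0.00548) and Col16a1 (0.52, adjusted p = 6.29e-04) became called higher, and Col4a4 (-0.76, adjusted p = 0.0835) was no longer called lower.

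**Figure D5:**
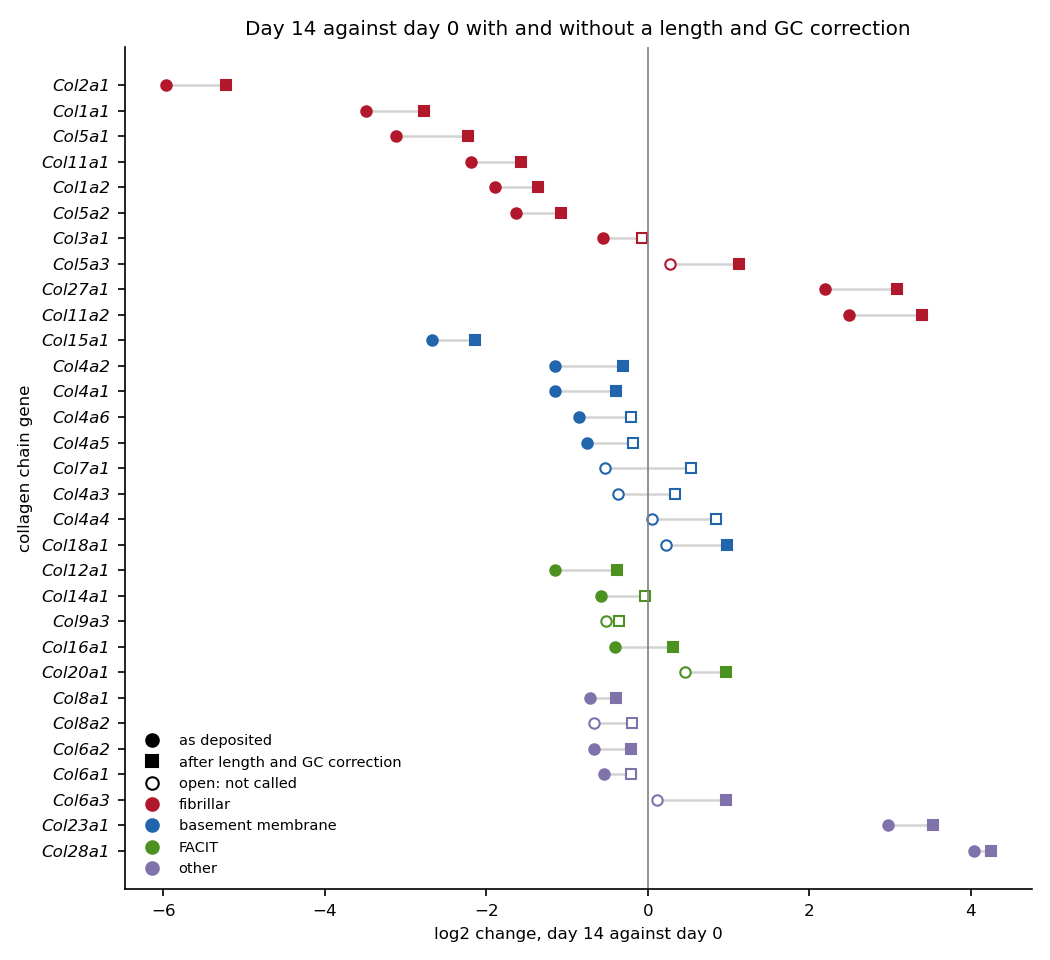
Log2 change at day 14 against day 0 of each tested collagen gene as deposited (circles) and after removal of a trend in transcript length and GC content (squares), with open symbols for changes that were not called. The squares lie to the right of the circles for all genes drawn, and Col1a1, Col5a1 and Col2a1 stay far below 0.

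Genes that process collagen moved with the chains at day 14. Of the 17 tested genes for procollagen folding and hydroxylation, 3 were called higher and 13 lower at day 14 against day 0 (median log2 change -0.88), beside 35.2% called higher and 35.6% called lower of all tested genes. At day 7 against day 0, 3 were higher and 12 lower, beside 27.5% and 27.9% of all genes, and at day 21 against day 14, 10 were higher, beside 20.2%. Fkbp10, an endoplasmic reticulum chaperone of type I procollagen, averaged 2790.5 at day 14 against 15216 at day 0 (log2 change -2.45 ± 0.10 SE, adjusted p = 1.12e-09). P4ha1, a catalytic subunit of prolyl 4-hydroxylase, averaged 3410.1 at day 14 against 11977 at day 0 (log2 change -1.81 ± 0.094 SE, adjusted p = 6.82e-09). Sec23a, a coat protein of the vesicles that carry procollagen out of the endoplasmic reticulum, averaged 998 at day 14 against 3204 at day 0 (log2 change -1.69 ± 0.11 SE, adjusted p = 6.75e-08). Of the 13 tested genes for trimming and cross-linking, 1 was called higher and 8 lower at day 14 against day 0 (median -0.69). The exception was Adamts3, a procollagen N-propeptidase, named because it stood alone, which averaged 72.4 at day 14 against 12.7 at day 0 (log2 change 2.42 ± 0.25 SE, adjusted p = 3.11e-06). Loxl2, a lysyl oxidase, averaged 2338 at day 14 against 16558 at day 0 (log2 change -2.83 ± 0.11 SE, adjusted p = 8.17e-10), and Pxdn, which cross-links type IV collagen, averaged 614 at day 14 against 4287 at day 0 (log2 change -2.81 ± 0.13 SE, adjusted p = 2.10e-09). Tll1, a procollagen C-propeptidase, averaged 53.2 at day 14 against 323 at day 0 (log2 change -2.58 ± 0.17 SE, adjusted p = 4.82e-08).

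Of the 8 tested genes for collagen breakdown and uptake, 3 were called higher and 2 lower at day 14 against day 0 (median 0.014), shares near the 35.2% called higher and 35.6% called lower of all tested genes. Mmp9, a gelatinase, averaged 114 at day 14 against 2.25 at day 0 (log2 change 5.20 ± 0.53 SE, adjusted p = 2.72e-06), and Mmp8, a collagenase, averaged 95.2 at day 14 against 31.2 at day 0 (log2 change 1.63 ± 0.24 SE, adjusted p = 6.39e-05). Both are also made by myeloid cells, and the macrophage sums were higher in the same libraries. The part of such cells in the Mmp9 and Mmp8 values was not tested. Mrc2, an endocytic collagen receptor, averaged 6456 at day 14 against 17299 at day 0 (log2 change -1.42 ± 0.14 SE, adjusted p = 1.86e-06). Of the 9 tested collagen receptors, 3 were called higher and 5 lower (median -0.65). Itga10 and Itga11 are collagen-binding integrin chains: Itga10 averaged 74.1 at day 14 against 5.54 at day 0 (log2 change 3.56 ± 0.29 SE, adjusted p = 3.11e-07) and Itga11 averaged 199 at day 14 against 1434 at day 0 (log2 change -2.85 ± 0.18 SE, adjusted p = 4.58e-08). Lair1, an inhibitory collagen receptor of leukocytes, averaged 30.9 at day 14 against 2.50 at day 0 (log2 change 3.17 ± 0.39 SE, adjusted p = 1.24e-05). Of the 15 tested transcriptional regulators of collagen genes, 3 were called higher and 10 lower (median -0.77). Smad3, which carries TGF-beta signals to collagen genes, averaged 512 at day 14 against 2173 at day 0 (log2 change -2.09 ± 0.11 SE, adjusted p = 7.75e-09). Scx, a tendon regulator of type I collagen genes, averaged 26.6 at day 14 against 95.0 at day 0 (log2 change -1.81 ± 0.28 SE, adjusted p = 8.29e-05), and Sox6, a cartilage regulator of Col2a1, averaged 48.7 at day 14 against 149 at day 0 (log2 change -1.61 ± 0.21 SE, adjusted p = 1.97e-05). The counts and medians of these lists at day 14 stand beside 35.2% called higher, 35.6% called lower and a median of 0.0027 over all tested genes.

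Some members share exons with another gene. Where that gene lies on the opposite strand, reads from the shared bases cannot be told apart without knowledge of strand. Col5a1 overlaps 2810430I11Rik and Gm13372 by 99 and 113 exon bases, and Col4a3 overlaps C430014B12Rik by 563 bases, all on the opposite strand. Col9a3, with 51 reads over all libraries, overlaps the protein-coding gene Tcfl5 by 234 bases, also on the opposite strand. Col3a1 overlaps the microRNA gene Gm47302 by 141 bases on the same strand, where knowledge of strand would not separate the reads. The head-to-head genes Col4a1 and Col4a2 overlap by 22 exon bases. Apart from Col4a1 and Col4a2, tested collagens that are neighbours with no protein-coding gene between them were Col3a1 and Col5a2, Col6a1 and Col6a2, Col4a3 and Col4a4, and Col4a5 and Col4a6. Within Col3a1 and Col5a2 the calls at day 21 against day 0 differed, with log2 changes of 0.40 (adjusted p = 0.0643) and -0.84 (adjusted p = 9.00e-04), though that difference was not tested.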

How the data were processed

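RNA sequencing libraries of cardiac fibroblasts at 4 times, 2 libraries each, were compared. Per the submitters' processing notes, reads were handled with TopHat2 2.0.11, HTSeq 0.6.1 and DESeq on build mm9. Whether counting used strand is not given in the sources used here. The deposited signal values are named normalized counts by the authors, and behave as read counts divided by a size factor per library: 100% of values were whole reads within 0.01 reads once divided by the value of 1 read. The 13527 genes that reached 10 in 2 or more libraries were tested with limma 3.58.1 (R 4.3.3) on log2(value + 1), a scale that understates the change of low genes, in 1 fit of all 8 libraries with two-sided tests, and called at an adjusted p below 0.05 over all genes. Alternatives on whole reads were edgeR 4.0.16, by quasi-likelihood, and DESeq2 1.42.0; for day 14 against day 0 they called 9633 and 8841 genes, against 9569 by limma. Other alternatives were a pseudocount of 0.5 or 5, no filter or one of 50, other scalings, the replicate number as a block, a length and GC correction, the 4 libraries of a comparison alone, and leaving out each library. The script was tested on simulated data. Lengths came from the longest annotated transcript of build GRCm38, matched by symbol for 98.4% of genes, with no coordinates taken from it.

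Members and gene lists were chosen with earlier results of these data known. Values in every library are given for members with a mean of at least 1000 at the highest time, for members called with a change of at least 2-fold and a mean of at least 50 at the higher time, and for Col1a1, Col1a2, Col3a1, Col2a1, Col4a1, Col4a2 and Col10a1. Of each list of collagen-related genes, the called members that changed most at day 14 against day 0 are named, at most 3. Adamts3 is named in addition, as the only trimming and cross-linking gene called higher in that comparison. The lists of marker genes were for fibroblasts, macrophages, endothelial cells, mural cells, cardiomyocytes, Schwann cells, adipocytes, chondrocytes, osteoblasts and mesothelial cells.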

Additional observations from a re-analysis of the deposited data

How the results depend on the processing

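The 186 changes of single collagens were recomputed under 20 alternatives, except that 48 of them fell under the filter of 50. Every change called by limma kept its direction wherever it was recomputed, except under the length and GC correction, which turned 18 changes, 4 of them called by limma, alone and together with the replicate block. Changes not called by limma also turned, at most 5 under any other alternative on all libraries and 2 to 10 on leaving out a library. The 4 were Col16a1 at day 14 against day 0 (to 0.31), Col16a1 at day 14 against day 7 (to 0.048), Col18a1 at day 14 against day 7 (to 0.23) and Col5a3 at day 14 against day 7 (to 0.030). The calls that ended or began, not counting the 4 that turned, numbered 1 with a pseudocount of 0.5 and 1 with a pseudocount of 5, 16 without a filter, 1 with TMM scaling, 5 with total read scaling, 3 with edgeR, 11 with DESeq2, 32 with the length and GC correction, and 10 with only the 4 libraries compared. Under that correction the 3 turned changes of day 14 against day 7 also lost their call. Total read scaling moved the median over all genes at day 21 against day 0 to -0.11.

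Counts that moved by more than 1.5 times were these. Of the 4 called higher at day 14 against day 0, 2 were tested and called with the filter of 50, and there were 9 with the length and GC correction. Of the 2 called higher at day 14 against day 7, there were 1 without a filter, 1 with the filter of 50, 1 with DESeq2 and 4 with the length and GC correction, and 0 to 2 on leaving out a library. The 4 called lower at day 21 against day 14 became 0 with the filter of 50 (fewer genes tested), 0 with DESeq2 and 1 with only the 4 libraries compared, and 1 to 4 on leaving out a library. The 10 called at day 21 against day 7, all lower, became 2 without a filter and 1 to 13 on leaving out a library, and with the length and GC correction 6 lower and 1 higher. Where no cause is given, the cause was not tested.

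The replicate numbers did not pair the libraries: deviations of same-numbered libraries from their time's mean correlated by -0.036 to 0.074 over 6 pairs of times. With the replicate number as a block, 7 calls of single collagens ended, and 5 collagens were called at day 21 against day 7, all 5 lower. With the replicate block and the length and GC correction together, 9 were called higher and 10 lower at day 14 against day 0, 4 higher at day 14 against day 7, and 6 (2 higher, 4 lower) at day 21 against day 7.

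Shares of collagen signal per kilobase in place of counts were, for fibrillar chains, 61.1% at day 14 against 78.4% at day 0, for basement membrane chains 13.4%, 26.6%, 16.8% and 19.8% at days 0, 7, 14 and 21, for FACIT chains 1.17%, 1.64%, 1.95% and 1.54%, and for other chains 7.03%, 16.6%, 20.1% and 15.5%. They kept the order of times within each class. At this depth 13 of 44 collagens were not tested, and the 8 tested collagens under 50 normalized counts in every library, of which 5 had a call, rest on 48 to 230 reads over all libraries.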

Other observations

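Markers of cell types not named beside a result were as follows. Of the 5 adipocyte markers tested, 5 were called higher at day 14 against day 0, and the 8 in the table summed to 6350.3 to 7509 normalized counts at day 14 against 122 to 162 at day 0. Most of the day 14 sum was Fabp4, at 5671 and 6967, while Adipoq had 20.0 and 21.0. The cardiomyocyte list summed to 22456 to 28811 at day 14 against 1137 to 1213 at day 0, nearly all of it Tnnt2, while Myh6 was at 0. The mural cell list summed to 886 to 1152 at day 14 against 1348 to 1425 at day 0, with 2 of 7 tested called higher and 2 lower. The mesothelial cell list summed to 2092 to 2183 at day 14 against 1388 to 1500.0 at day 0, with 2 of 7 called higher and 3 lower. These counts at day 14 against day 0 stand beside 35.2% called higher and 35.6% called lower of all tested genes. The osteoblast list summed to 417 to 692 at day 21 against 175 to 260.2 at day 0, with Alpl its highest gene. Of the 3 osteoblast markers tested, 2 were called higher and 0 lower at day 21 against day 0, beside 29.8% and 29.5% of all tested genes. At days 7 and 14 against day 0, 1 was called higher and 1 lower. What these cells or genes add to the collagen values was not tested.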
